A study of Mus musculus with 8 samples.

Results

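The genes of hepatic glycogen synthesis and breakdown were examined in the livers of obese, diabetic mice treated with AF1 peptide. The 9 genes were picked by name: Gys2, Gyg, Ugp2, Gbe1, Pygl, Phka2, Ppp1r3b, Ppp1r3c and Ppp1r3g. Each of them is among the 21532 genes of the deposited table, and all 9 passed the filter on low values (a mean of at least 10 normalized read counts over the mice), as did 15989 genes in all. The mice were males of the db/db strain, whose leptin receptor does not work, on the C57B/6J background as the study names it. From 8 weeks of age they received control or AF1 peptide, a TAT-linked peptide derived from estrogen receptor α, at 5 mg per kg body weight by retro-orbital injection 2 times per week for 5 weeks. RNA-Seq was made from frozen liver of 4 control and 4 AF1 peptide mice, with 1 library per mouse. What the control injection held, and the feeding state and hour at liver collection, are not given in the sources used here.

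Glycogen is the branched glucose store of the liver, built after meals and broken down between them. UDP-glucose is made by UDP-glucose pyrophosphorylase, glycogenin lays the first chain, glycogen synthase lengthens it and the branching enzyme adds side chains. Glycogen phosphorylase releases glucose 1-phosphate and is switched on by phosphorylase kinase, while protein phosphatase 1, brought to the particle by its glycogen-targeting subunits, activates the synthase and inactivates the phosphorylase. Much of this control acts on the proteins, by phosphorylation and glucose 6-phosphate, and is not visible in RNA levels.

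Recovered reads ranged from 35260283 to 45117528 per library in control and from 23031880 to 43978158 in AF1 peptide mice. The scarcest member reading was that of Gyg, with 92 reads in 1 library. The hepatocyte markers were abundant in every library (1937030 to 2679450 normalized counts summed over 8 genes). The skeletal muscle markers summed to 4.94 to 12.8 per mouse. The red blood cell markers summed to 123402 normalized counts in control replicate 4 and to 27114 to 51930 in the other mice. AF1 peptide replicate 2 had the fewest reads (23031880) and the highest share of reads on the mitochondrial genome (38.2%). AF1 peptide replicate 1 stood apart from the other libraries. Its hepatocyte markers split: 3 of 8 (Alb, Apoa1 and Ttr) were at their lowest of all mice and 5 (Cps1, Ass1, Serpina1a, Cyp2e1 and Hnf4a) at their highest. Its sum over them was the lowest, and Alb made up most of that sum. Of the macrophage markers 7 of 8, and of the stellate cell markers 6 of 8, had their lowest value in this mouse. Its macrophage marker sum was 2545, against 5536 to 6968 in control and 6289 to 6639 in the other AF1 peptide mice. Its share of reads on the mitochondrial genome was 21.1%, below the 22.6 to 34.7% of control mice and the 34.7 to 38.2% of the other AF1 peptide mice. Results are therefore also given without this mouse. In bulk liver, fewer cells of a type and less RNA per cell cannot be told apart.

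The results turned on 3 members: the branching enzyme gene Gbe1, the only one past the threshold, and the targeting subunit genes Ppp1r3c and Ppp1r3g, the most variable among mice. Their promoters are shown as the 250 bases before the annotated start in RefSeq (GRCm38.p6, chr16:70313699-70313948 on the plus strand, chr19:36736605-36736854 on the minus strand and chr13:35967656-35967905 on the plus strand). Capitals mark motifs searched on both strands: the E-box CACGTG, the cyclic AMP response element half-site TGACG and the FOXO motif TGTTTAC.
Gbe1: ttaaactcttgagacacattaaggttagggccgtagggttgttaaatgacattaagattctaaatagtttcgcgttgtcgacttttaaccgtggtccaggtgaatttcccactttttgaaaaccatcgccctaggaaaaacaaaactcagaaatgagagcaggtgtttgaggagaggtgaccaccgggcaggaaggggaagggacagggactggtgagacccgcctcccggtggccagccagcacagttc
Ppp1r3c: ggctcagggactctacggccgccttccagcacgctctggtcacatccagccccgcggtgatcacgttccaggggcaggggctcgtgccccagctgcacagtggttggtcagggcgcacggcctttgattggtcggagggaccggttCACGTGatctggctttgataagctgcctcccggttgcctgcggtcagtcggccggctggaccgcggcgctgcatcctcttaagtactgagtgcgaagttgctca
Ppp1r3g: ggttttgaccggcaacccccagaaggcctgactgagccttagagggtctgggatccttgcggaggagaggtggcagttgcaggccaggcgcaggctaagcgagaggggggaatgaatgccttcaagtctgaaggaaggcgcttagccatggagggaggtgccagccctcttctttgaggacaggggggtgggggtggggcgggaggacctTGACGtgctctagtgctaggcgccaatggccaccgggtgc
The Ppp1r3c window held 1 E-box, as did 6.02% of 32851 promoter windows of that length. The Ppp1r3g window held 1 half-site, found in 17.8% of windows, and the Gbe1 window held none of the 3 motifs. The FOXO motif, held by 3.17% of windows, was in none of these 3. A match is a description of letters and does not show binding.

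To compare levels between genes, normalized counts were divided by the length in kilobases of each gene's principal GENCODE transcript. In control livers Ugp2 was the highest, at 4138 ± 1114 counts per kb (SD, n = 4), followed by Pygl at 2824 ± 395 and Gys2 at 2643 ± 294 (SD, n = 4 each). The ranges of these 3 neighbours overlapped, so their order was not separated from the spread between mice. Ppp1r3b (592 ± 110.1 counts per kb) and Phka2 (354 ± 29.1) came next, each with a range apart from its neighbours. Gbe1 (218 ± 58.7), Ppp1r3c (157 ± 34.7), Gyg (111 ± 21.0) and Ppp1r3g (96.6 ± 39.2) formed the lowest part, with overlapping ranges between neighbours. In AF1 peptide livers Gys2 (2722 ± 351 counts per kb) came above Pygl (2402 ± 235), again with overlapping ranges. The liver isoforms dominated their families in every mouse: Gys2 made up 99.0 to 99.4% of the summed level per kb of Gys2 and Gys1, the muscle-type synthase. Pygl made up 98.2 to 99.0% of the 3 phosphorylase genes, and Phka2 85.6 to 90.7% of the pair of phosphorylase kinase α subunit genes.

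**Figure D1:**
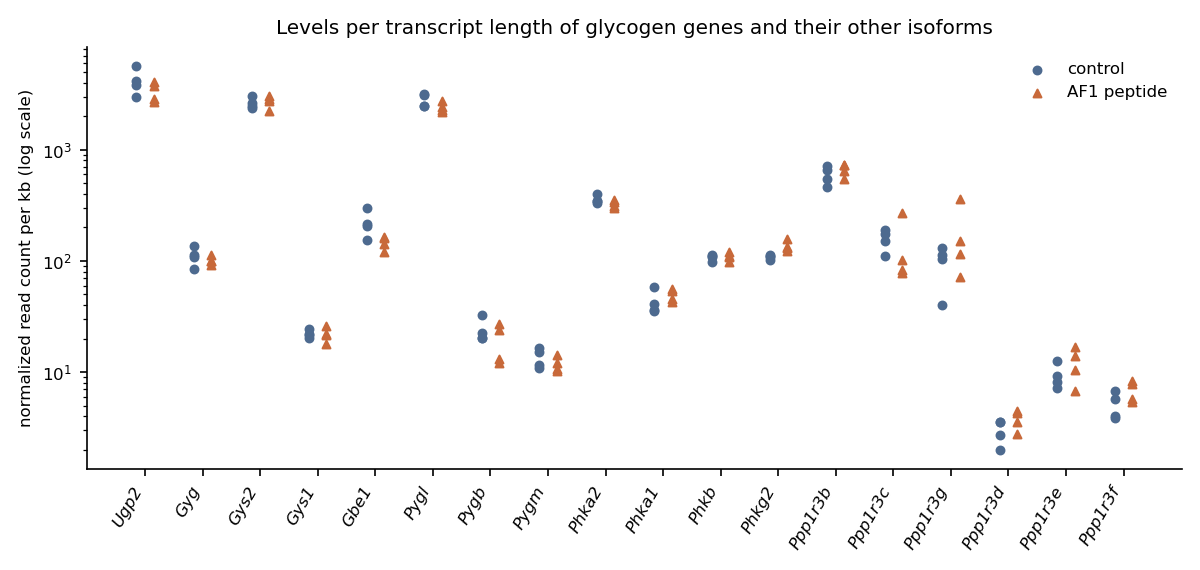
Normalized read counts per kb of principal transcript, on a log scale, of the glycogen genes and their other isoforms; each circle is a control mouse and each triangle an AF1 peptide mouse. Ugp2, Gys2 and Pygl lie above all other genes plotted in all 8 mice, and Gys1 lies between 17.9 and 26.1.

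At an unadjusted limma p value under 0.05, 1 of the 9 members was lower and 0 were higher in AF1 peptide than in control mice. Over all tested genes, 3.03% were lower and 3.16% higher by that rule. By sign alone, 6 members had a negative and 3 a positive log2 fold change, and the median of the members was -0.12, against -0.0083 over all tested genes. The groups did not overlap in 0 of the 9 members, where 3.9% of all tested genes did not overlap. After Benjamini-Hochberg adjustment in limma 0% of all tested genes passed 0.05, although 990 had passed unadjusted. The same adjustment passed 0 genes in edgeR and 3 in DESeq2. The p value of Gbe1 was the 213th smallest of the 15989.

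Gbe1 encodes the branching enzyme, which moves chain ends to make the side branches of glycogen. It had 591, 846, 442 and 606 normalized counts in control replicates 1 to 4 and 454, 345, 404 and 465 in AF1 peptide replicates 1 to 4. The AF1 peptide mice lay in the lower part of the range, with 2 of the 4 below every control mouse, and control replicate 3 lay within the AF1 peptide range. Control mice averaged 621 ± 167 and AF1 peptide mice 417 ± 54.8 (SD, n = 4 each). On the log2(normalized count + 1) scale the change was -0.55 (standard error 0.18, 95% interval -0.95 to -0.14), a fold of 0.685, with an unadjusted limma p value of 0.0133 and an adjusted p value of 0.763. The two-sided exact permutation test of the same values gave p = 0.0857, where 0.0286 is the smallest that 4 mice against 4 allow. Without AF1 peptide replicate 1 the log2 fold change of Gbe1 was -0.59. Medians of marker lists also moved in that fit. The macrophage median went from -0.24 to 0.05 and the hepatocyte median from -0.03 to -0.16. The stellate cell median went from -0.03 to 0.14 and the bile duct median from 0.05 to 0.28. A link between cell content and the Gbe1 values was not tested. No other annotated gene overlaps Gbe1, and none of its 50-base words occur in transcripts of other genes (0%).

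The other synthesis genes did not pass the threshold. Gys2, the liver glycogen synthase, had 7036, 8109, 6316 and 6628 normalized counts in control and 7233, 7647, 8108 and 5939 in AF1 peptide mice. The groups covered nearly the same range, and the log2 fold change was 0.04 (95% interval -0.24 to 0.32, adjusted p = 0.964 in limma). Its sign is not fixed: with all libraries scaled to equal totals the log2 fold change was -0.05. With equal totals of genes not on the mitochondrial genome it was 0.04. Ugp2, which makes UDP-glucose, ranged from 7988 to 15132 normalized counts in control and from 7197 to 11012 in AF1 peptide mice, with a log2 fold change of -0.29 (95% interval -0.75 to 0.17, adjusted p = 0.792 in limma). Control replicate 2 held its highest value and AF1 peptide replicate 1 its lowest, and the log2 fold change of Ugp2 was -0.13 without the former and -0.19 without the latter. Gyg, which encodes glycogenin, the protein primer of the particle, had 145 to 232 normalized counts in control and 157 to 190 in AF1 peptide mice (log2 fold change -0.12, 95% interval -0.46 to 0.22, adjusted p = 0.878 in limma). An antisense transcript, Gm12043, overlaps exons of Ugp2, and the strand setting of the counting is not given in the sources used here, so reads of the pair cannot be told apart.

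**Figure D2:**
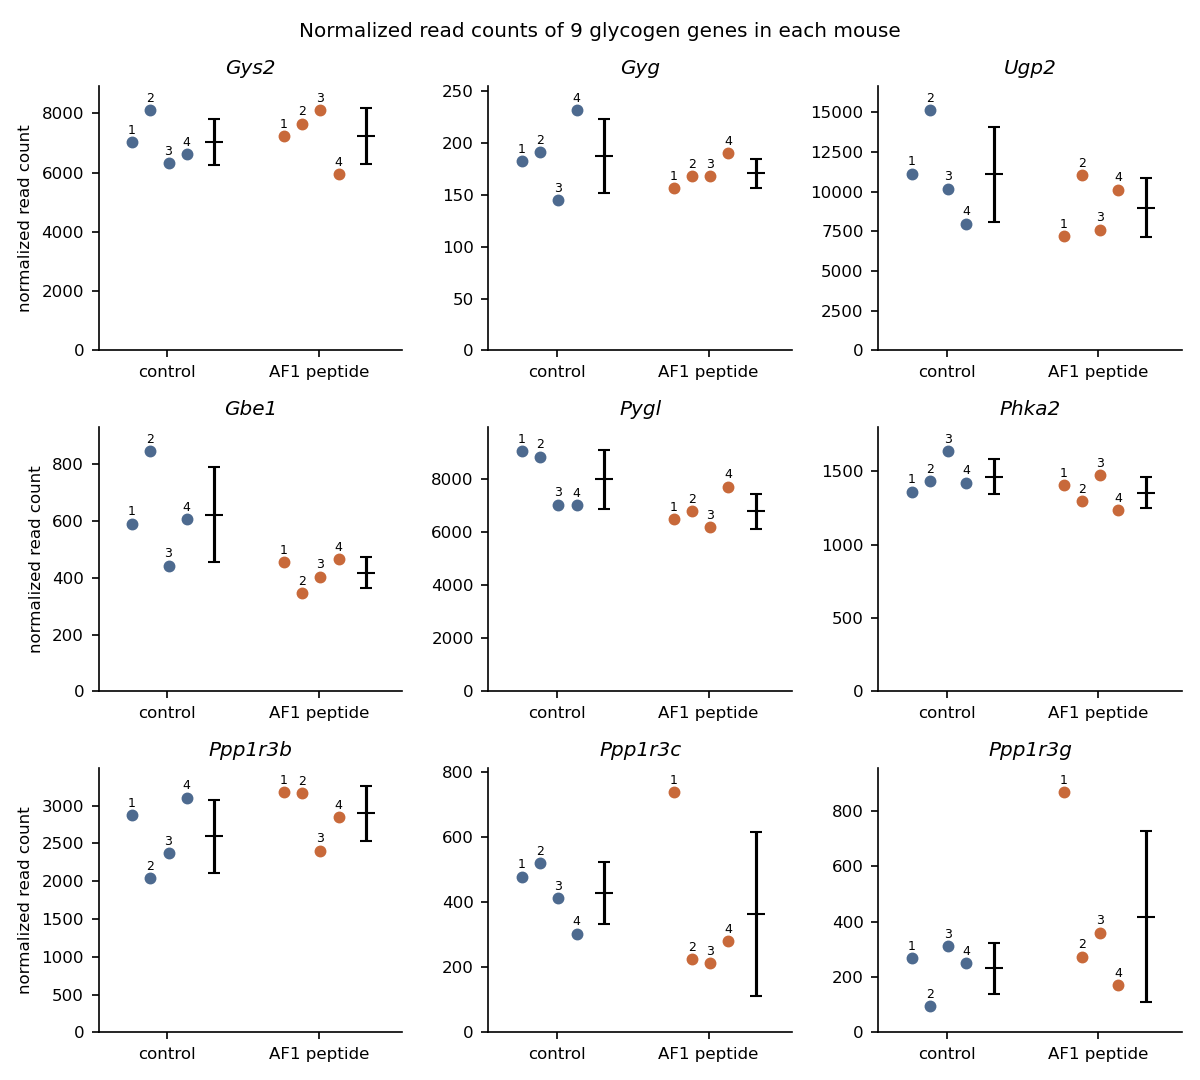
Normalized read counts of the 9 glycogen genes, with 1 point per mouse labelled by replicate number, control in blue and AF1 peptide in orange, and the mean ± SD of each group (n = 4) in black. The AF1 peptide points of Gbe1 lie at 345 to 465, and AF1 peptide replicate 1 lies far above the other mice for Ppp1r3c (737) and Ppp1r3g (868).

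Of the breakdown genes, Pygl encodes the liver glycogen phosphorylase, which takes single glucose units from chain ends. It had 9049, 8835, 7024 and 7007 normalized counts in control and 6485, 6780, 6173 and 7709 in AF1 peptide mice. AF1 peptide replicates 1 to 3 lay below every control mouse and replicate 4 lay within the control range. The log2 fold change of -0.23 (standard error 0.13, 95% interval -0.51 to 0.05) had an unadjusted limma p value of 0.101 and an adjusted p value of 0.766, within the spread between mice. Phka2, the liver α subunit of phosphorylase kinase, had 1361 to 1638 normalized counts in control and 1236 to 1472 in AF1 peptide mice (log2 fold change -0.11, 95% interval -0.33 to 0.10, adjusted p = 0.825 in limma). Of the 9 members it varied least within groups, and 90.4% of all tested genes had a larger within-group SD on the log2 scale. An antisense transcript, Gm15243, overlaps exons of Phka2.

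The balance of the synthase and phosphorylase RNAs was read as the ratio of Gys2 to Pygl per kb in each mouse, as a description with no test. It was 0.827, 0.976, 0.956 and 1.01 in control replicates 1 to 4 and 1.19, 1.20, 1.40 and 0.819 in AF1 peptide replicates 1 to 4. AF1 peptide replicates 1 to 3 thus lay above every control mouse, while replicate 4 had the lowest ratio of all 8. Control mice averaged 0.941 ± 0.0790 and AF1 peptide mice 1.15 ± 0.241 (SD, n = 4 each). Per kb of all annotated exons, which for Pygl are longer than the principal transcript, the means were 2.30 and 2.81, so the order of the mice holds but the level depends on the length used.

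**Figure D3:**
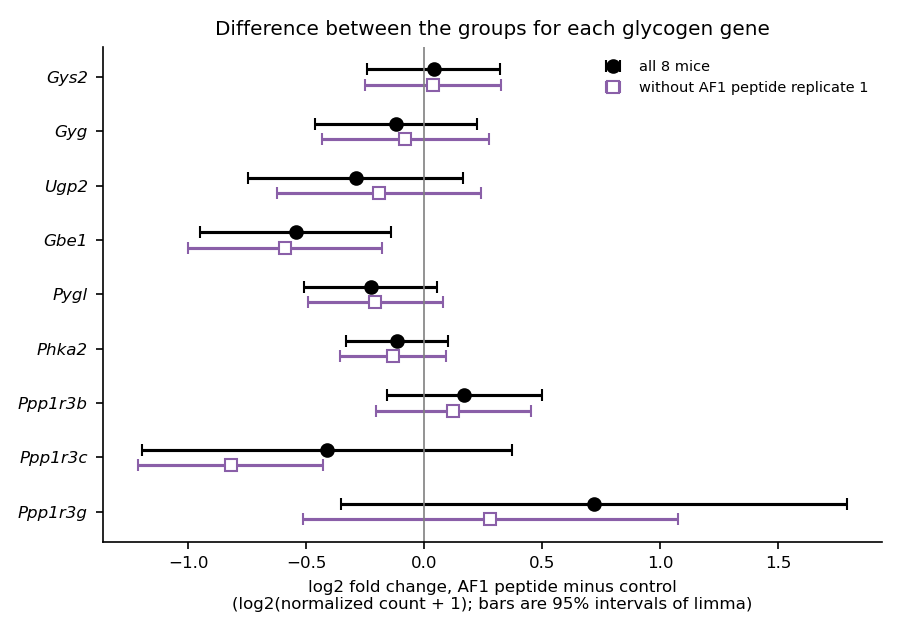
Log2 fold change (AF1 peptide minus control, log2(normalized count + 1)) of each glycogen gene with its 95% limma interval, for all 8 mice (filled circles) and without AF1 peptide replicate 1 (open squares). The interval of Gbe1 lies below 0 in both fits, and that of Ppp1r3c lies below 0 only without that mouse (log2 fold change -0.82, against -0.41 with it).

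Of the 3 targeting subunits of protein phosphatase 1, Ppp1r3c and Ppp1r3g had the largest within-group SDs of the 9 members on the log2 scale. Ppp1r3c, which encodes the subunit known as protein targeting to glycogen, had 478, 520, 411 and 303 normalized counts in control and 737, 225, 212 and 280 in AF1 peptide mice. AF1 peptide replicate 1 was above, and the other 3 AF1 peptide mice below, every control mouse. With all mice the log2 fold change was -0.41 (standard error 0.35, 95% interval -1.20 to 0.37, adjusted p = 0.825 in limma). On recovered reads of the same 8 mice Ppp1r3c was at -0.23 in both edgeR and DESeq2, and it was at -0.25 without AF1 peptide replicate 2 and -0.22 without replicate 3. Without AF1 peptide replicate 1, a choice made after the data were seen, Ppp1r3c was 239 ± 36.3 (SD, n = 3) against 428 ± 94.6 (SD, n = 4) in control mice. The log2 fold change was then -0.82, with a standard error of 0.18, an unadjusted limma p value of 0.00072 and an adjusted p value of 0.452. By the unadjusted threshold that fit put 2 members, Gbe1 and Ppp1r3c, lower and 0 higher, while 5.48% of all tested genes were lower and 4.58% higher.

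Ppp1r3g, another of the targeting subunit genes, had 268, 95.5, 310 and 250 normalized counts in control and 868, 274, 360 and 171 in AF1 peptide mice. It spanned 9.09-fold over the 8 mice, and only 2.68% of all tested genes had a larger within-group SD on the log2 scale. The log2 fold change of 0.72 (standard error 0.48, 95% interval -0.35 to 1.79, adjusted p = 0.782 in limma) was within that spread, and it was 0.28 without AF1 peptide replicate 1 and 0.34 without control replicate 2. Without AF1 peptide replicate 4 it was 1.06, with an unadjusted limma p value of 0.0478. Ppp1r3b, the main subunit of liver, had 2872, 2037, 2368 and 3105 normalized counts in control and 3180, 3167, 2406 and 2846 in AF1 peptide mice. Its groups overlapped over most of their range (log2 fold change 0.17, 95% interval -0.16 to 0.50, adjusted p = 0.825 in limma).

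Per kb, Ppp1r3b made up 64.6 to 75.2% of the summed level of 6 targeting subunit genes in control mice and 69.0 to 76.6% in AF1 peptide replicates 2 to 4. In AF1 peptide replicate 1 its share was 52.6%, with 26.3% for Ppp1r3g and 19.6% for Ppp1r3c. The share of Ppp1r3c was 11.8 to 26.7% in control mice and 8.70 to 12.1% in AF1 peptide replicates 2 to 4. Ppp1r3d, Ppp1r3e and Ppp1r3f each made up at most 1.77% in every mouse.

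**Figure D4:**
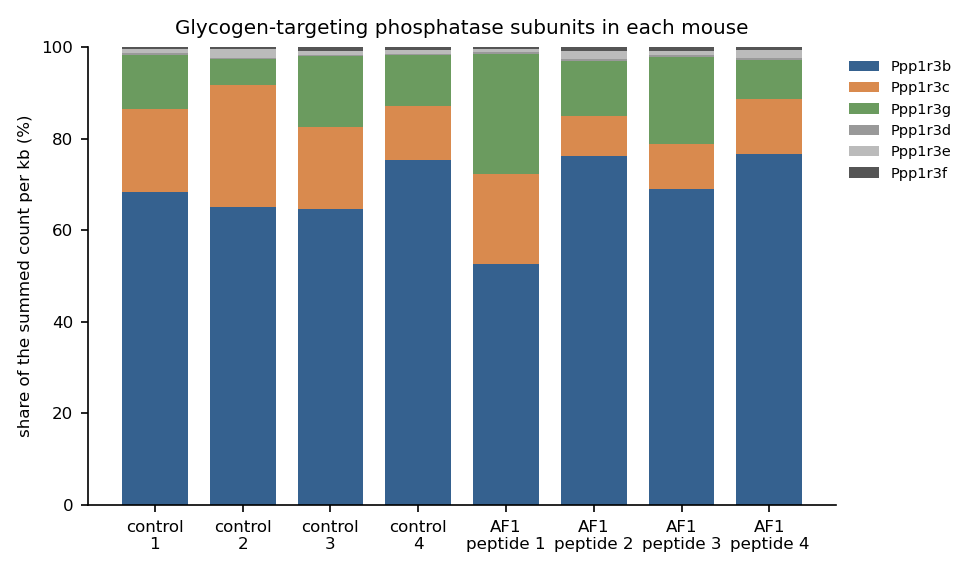
Share (%) of each of 6 glycogen-targeting phosphatase subunit genes in their summed normalized count per kb, with 1 bar per mouse. Ppp1r3b holds most of each bar, and AF1 peptide replicate 1 has the smallest share of it (52.6%) and the largest of Ppp1r3g (26.3%).

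AF1 peptide replicate 1 was also at the top of the range for several fasting and insulin signalling genes. They were chosen after their values were seen. Tat, tyrosine aminotransferase, had 68707 normalized counts in this mouse, against 7551 to 23826 in control and 6311 to 9220 in the other AF1 peptide mice. Pck1, of gluconeogenesis, had 77425 against 20589 to 47452 in the remaining 7 mice, and Irs2, an insulin receptor substrate, 596 against 172 to 220. Their part in the values of Ppp1r3c and Ppp1r3g was not tested.

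Of 15 other glycogen enzymes and particle proteins, 14 were tested, 1 was higher and 0 lower, and their median log2 fold change was -0.04. Over all tested genes 3.16% were higher and 3.03% lower by the same limma rule. Counts this small, here and in the lists below, are given as descriptions. Phkg2, the catalytic γ subunit of phosphorylase kinase, had 207, 204, 200 and 189 normalized counts in control and 289, 225, 243 and 239 in AF1 peptide mice, all above the highest control mouse. It changed by 0.31 on the log2 scale (standard error 0.12, unadjusted limma p value 0.0233, exact permutation p = 0.0286, adjusted p = 0.763). It was 0.23 without AF1 peptide replicate 1, with an unadjusted limma p value of 0.0612, and 0.22 with equal totals. With equal totals of genes not on the mitochondrial genome it was 0.31 (unadjusted limma p value 0.0245). Exons of Ccdc189 overlap it on the other strand.

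Among 15 phosphatase and kinase regulators, 14 were tested, 1 was lower and 0 higher (all tested genes: 3.03% lower, 3.16% higher). This was Prkaa2, an AMP-activated kinase catalytic subunit, with 440 to 508 normalized counts in control and 306 to 441 in AF1 peptide mice (log2 fold change -0.29, unadjusted limma p value 0.0491, exact permutation p = 0.0571, adjusted p = 0.763). Of 6 genes of glucose entry and glucose 6-phosphate, 1 was lower and 0 higher. Slc2a2, the glucose transporter GLUT2 of hepatocytes, had 2193 to 2996 normalized counts in control and 2062 to 2336 in AF1 peptide mice (log2 fold change -0.25, unadjusted limma p value 0.0428, exact permutation p = 0.0857, adjusted p = 0.763). Leaving out 1 mouse at a time, its call and that of Prkaa2 were each lost in 6 of 8 fits.

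Of 17 genes of the hormone signals to glycogen, 2 were higher and 0 lower, with a median log2 fold change of 0.07. Over all tested genes 3.16% were higher and 3.03% lower. Adra1b, the α1B adrenergic receptor, had 2720 to 3444 normalized counts in control and 3416 to 4053 in AF1 peptide mice (log2 fold change 0.29, unadjusted limma p value 0.0236, exact permutation p = 0.0571, adjusted p = 0.763). Prkar2a, a regulatory subunit of protein kinase A, had 843 to 1075 in control and 1054 to 1275 in AF1 peptide mice (log2 fold change 0.31, unadjusted limma p value 0.0157, exact permutation p = 0.0571, adjusted p = 0.763). The counts of Akt2, an insulin-activated kinase, did not overlap (1640 to 1740 in control, 1755 to 2066 in AF1 peptide mice), yet its log2 fold change of 0.14 had an unadjusted limma p value of 0.142, and 9.75% of its 50-base words occur in another gene's transcripts. With equal totals Adra1b and Prkar2a had log2 fold changes of 0.20 and 0.22 and did not pass the threshold. With equal totals of genes not on the mitochondrial genome they had 0.29 and 0.31 (unadjusted limma p values 0.0145 and 0.0152).

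**Figure D5:**
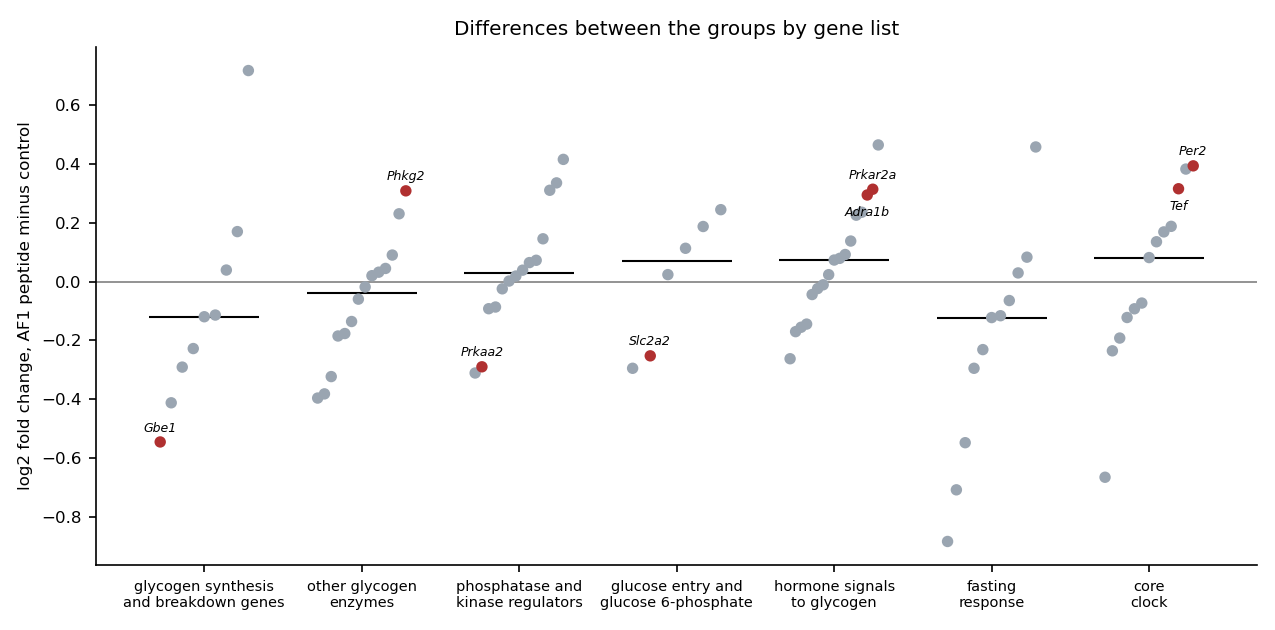
Log2 fold change (AF1 peptide minus control) of the tested genes of each list, sorted within a list; red points had an unadjusted limma p value under 0.05 and lines are list medians. Gbe1 at -0.55 is the red point of the glycogen synthesis and breakdown genes, and the fasting response list has none.

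Of 11 fasting response genes 0 were higher and 0 lower by the same limma rule, and their median log2 fold change was -0.12. Fgf21, a fasting hormone, had the largest change of that list at -0.88, with 470 to 1209 normalized counts in control and 81.2 to 1061 in AF1 peptide mice, and it was -0.11 without AF1 peptide replicate 1. In the fit without that mouse, 5.48% of all tested genes were lower and 4.58% higher. There, 2 fasting genes were lower and 0 higher: Tat at -0.74 (unadjusted limma p value 0.0286) and G6pc, the glucose 6-phosphatase, at -0.63 (unadjusted limma p value 0.0430). Of 13 core clock genes 2 were higher and 0 lower with all mice, where 3.16% of all tested genes were higher and 3.03% lower. Per2, a clock repressor, had 1818 to 2808 normalized counts in control and 2439 to 3430 in AF1 peptide mice (log2 fold change 0.39, unadjusted limma p value 0.0249, exact permutation p = 0.0571). Tef, a clock output factor, had a log2 fold change of 0.32 (unadjusted limma p value 0.0486, exact permutation p = 0.0857), and neither passed an adjusted p of 0.05 (0.763 each). With equal totals they were 0.30 and 0.22 and did not pass the threshold. With equal totals of genes not on the mitochondrial genome Per2 was at 0.39 (unadjusted limma p value 0.0415) and Tef did not pass. The clock list had 1 gene higher and 1 lower without AF1 peptide replicate 1: Per2 at 0.37 and Per1, another clock repressor, at -0.42 (unadjusted limma p value 0.00952). Tef was then at 0.20 and did not pass the threshold (unadjusted limma p value 0.107). In the same fit the other glycogen enzymes had 0 genes past it, the phosphatase and kinase regulators 1 lower (Ppp1ca, a catalytic subunit of protein phosphatase 1, at -0.54), the genes of glucose entry and glucose 6-phosphate 2 higher and 1 lower, and the hormone signals 2 higher (Adra1b and Prkar2a) and 1 lower (Irs1, an insulin receptor substrate, at -0.51).

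Over the 8 mice, with group means removed, the genes whose pattern was most like that of Gys2 among 12434 searched were Aasdh (correlation 0.991), 1190007I07Rik (0.922) and Slc25a42 (0.904). For Pygl they were Gatad1 (0.981), Cab39l (0.974) and Sfr1 (0.966). These are the extremes of many correlations over 8 points that share libraries and scaling, and are given as descriptions.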

How the data were processed

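Stranded mRNA libraries were made from TRIzol-extracted liver RNA of 4 control and 4 AF1 peptide mice. Per the labels and the paper's methods, the authors trimmed reads with Trim Galore 0.6.7, aligned them with HISAT2, used SAMtools 1.17 on the alignments, and obtained gene counts from GenomicAlignments. Annotation, strand setting and normalization tool are not given in the sources used here. The submitters' processing notes name mm39 as the build, whereas the reference used here for lengths and promoters is GRCm38, so the promoter coordinates are those of GRCm38.p6 and no mm39 coordinates are given. The deposited values are a normalized signal: read counts of each gene divided by 1 size factor per library, equal to the median-of-ratios factors. Whole reads were recovered from them (100% of 172256 values lay within 0.01 reads of a whole number). Depth was 23031880 to 45117528 reads per mouse. Chi-square statistics between replicates of a group were 12.2 to 264 per degree of freedom, so none was a duplicate.

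The log2(normalized count + 1) was fitted with limma 3.58.1 (R 4.3.3) with the trend option. The 15989 genes whose mean was at least 10 were tested. The study gives a p value of 0.05 as its threshold, so genes were called at an unadjusted p value under 0.05, with Benjamini-Hochberg adjusted values beside it. Levels per kb used GENCODE M21 principal transcripts (APPRIS). Promoters matched 7 of the 9 members. All 9 members are named. Of the other lists, genes past the threshold or without overlap are named, or else the one with the largest change. For Gys2 and Pygl the 3 most correlated genes with a mean of at least 50 are named. The members and lists were chosen with earlier results of these data known. Alternatives were pseudocounts of 0.5 and 5, other filters, scalings and variances, the replicate block, edgeR 4.0.16 and DESeq2 1.42.0 on recovered reads, a fold of more than 1.3, and each mouse left out. Scripts were tested on simulated data. Some genes of the other lists are not reported here.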

Additional observations from a re-analysis of the deposited data

Results flagged for a closer look

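The highest and the lowest mouse of each group were compared with the others for the 9 members, which gave 18 groups of 4 mice. In 1 of them a mouse stood apart past Dixon's 95% critical value, where chance alone flags about 1 in 20 groups. For Ppp1r3c among the AF1 peptide mice, the gap of replicate 1 (737 normalized counts) to the nearest mouse was 0.870 of the range of the group. The value is given without an explanation, and the fit without this mouse stands in the results.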

How the results depend on the processing

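Gbe1 kept its direction and an unadjusted p value under 0.05 in all 20 alternatives run, with log2 fold changes of -0.70 to -0.38 and p values of 0.00206 to 0.0441. These alternatives refit the same mice. The two-sided exact permutation test, which is not among them, gave p = 0.0857 for Gbe1 and did not pass 0.05. Gys2 changed sign with equal totals (-0.052) but not with equal totals of genes not on the mitochondrial genome (0.038). For Gys2, leaving out 1 mouse in turn gave -0.019 to 0.131, below 0 without control replicate 3 or AF1 peptide replicate 3. With 1 mouse left out in turn, 0 to 1 members were higher and 1 to 2 lower, 285 to 732 of all tested genes were higher and 255 to 876 lower (285 higher and 255 lower without control replicate 2), and 0 to 1 members had groups without overlap. These were Gbe1 without control replicate 3, Ppp1r3c without AF1 peptide replicate 1 and Pygl without AF1 peptide replicate 4. In each case the mouse left out was the mouse whose value had made the groups overlap. The separation thus followed from that choice. The share of all tested genes without overlap is given for all mice but not for these fits, so these cases are descriptions. Equal totals, which move the median of all tested genes from -0.0083 to -0.0987, gave 2 members lower (Gbe1 and Pygl), with 129 of all tested genes higher and 769 lower, in place of 506 and 484. With equal totals of genes not on the mitochondrial genome the median of all tested genes was -0.0093. Requiring more than 1.3-fold gave 286 genes higher and 304 lower. At a Benjamini-Hochberg adjusted p value under 0.05, limma, edgeR and the replicate block called 0 members and 0 genes, and DESeq2 0 members, 2 genes higher and 1 lower. Counts at an adjusted p value in edgeR, DESeq2 and the block were added after seeing the data. The replicate numbers stand for different mice, and deviations of same-numbered mice correlated at -0.064 to 0.235, so they were not taken as pairs. With the replicate block 1 member was lower and 0 higher, Gbe1 had an unadjusted p value of 0.0184, and 597 genes were higher and 647 lower. The causes of these differences were not tested. Leaving out 1 mouse in turn moved the members that did not pass by more than 1.5 times in several cases, with ranges of -0.44 to -0.13 for Ugp2, -0.24 to -0.01 for Gyg, -0.16 to -0.06 for Phka2, 0.06 to 0.26 for Ppp1r3b, -0.82 to -0.22 for Ppp1r3c and 0.28 to 1.06 for Ppp1r3g. With 4 mice per group, the intervals of the members were wide, from -1.20 to 0.37 for Ppp1r3c.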
